A study of Mus musculus with 16 samples.

Results

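Distal EWSR1::ATF1 (EA1) sites with an acetylated-histone peak but no RNA polymerase II peak were examined in mouse clear cell sarcoma (CCS) tumours. They were chosen by 3 measured peak lists. A V5 peak was taken when it lay outside the window within 3 kb of every transcription start site (TSS), shared at least 1 bp with an H3K27ac peak and shared no base with any RNAPOL2 peak. The rule gave 2740 sites, which were 25.7% of the 10665 V5 peaks and 43.3% of the 6335 distal V5 peaks. They are called acetylated-only sites here. They were compared with 1142 distal V5 peaks that touched both marks (both-mark sites), with 2421 distal V5 peaks that touched neither mark (unmarked sites), and with 6263 distal H3K27ac peaks that touched no V5 and no RNAPOL2 peak (V5-free acetylation). The study describes sets of V5 sites of differing size, some larger than the deposited list, so V5-free means without a peak in that list, and the shares are shares of that list. Likewise, the lack of a called RNAPOL2 peak does not show that polymerase was absent. The study reports correlated signals also at some loci whose binding was too weak to be called. The 32 distal V5 peaks that touched only RNAPOL2 were left aside.

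All samples were tumours of 1 mouse model with the genotype EWSR1::ATF1. The mice, of mixed 129/SvJ and C57Bl/6 background, carried a V5-tagged human fusion under the Rosa26 promoter, and the fusion was switched on by injecting TATCre, a cell-permeable Cre recombinase, into the hindlimb. ChIP-seq, the sequencing of DNA precipitated with a bound protein, was carried out with antibodies to V5, to phosphorylated RNA polymerase II (RNAPOL2) and to H3K27ac, and the labels give 4 samples for each antibody and 4 of input chromatin, 16 in all. There was no tumour without the fusion and no normal tissue among them, and the ages and sexes of the mice were not used here. Each antibody is represented by 1 peak list with a whole-number score for each peak, whose scale is not stated. The lists hold no read counts and no values for single tumours, so the depth behind each peak is unknown, no spread between animals can be given, and the errors below cover counting of peaks only.

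ATF1 belongs to the CREB family of basic leucine zipper factors, which bind as dimers to the cAMP response element and are activated when cAMP signalling rises. In CCS the fusion joins the DNA-binding part of ATF1 to the amino-terminal part of EWSR1. The study cites the hypothesis that the fusion therefore acts without that signal, which was not tested here. Acetylation of lysine 27 of histone H3 marks active promoters and enhancers, and an enhancer that works on its gene is often also touched by RNA polymerase II.

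The sequences of 7 sites are printed first, because the comparisons below turn on the motifs they hold. They were read from the + strand of GRCm38 (mm10), 5′ to 3′, around the motif in question. Capitals mark the cAMP response element and its forms (TGANNTCA), the AP-1 motif (TGAGTCA or its reverse complement TGACTCA) and strings of 5 or more TGA or TCA units with gaps of at most 5 bp. The highest-scored site with the full element TGACGTCA had a score of 3331 and lay in a coding exon of Invs, the gene of the ciliary protein inversin (chr4:48397508-48397667).
Invs exon site: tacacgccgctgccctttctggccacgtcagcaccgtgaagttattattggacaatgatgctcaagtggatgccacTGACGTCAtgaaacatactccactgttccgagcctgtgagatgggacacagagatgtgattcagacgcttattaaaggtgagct
The highest-scored acetylated-only site of all (13847, rank 5 of all V5 peaks) was intergenic on chromosome 13 and was at the same time the highest-scored site with TGACATCA, with TGAGTCA and with a string (chr13:44168712-44168952).
Chromosome 13 site: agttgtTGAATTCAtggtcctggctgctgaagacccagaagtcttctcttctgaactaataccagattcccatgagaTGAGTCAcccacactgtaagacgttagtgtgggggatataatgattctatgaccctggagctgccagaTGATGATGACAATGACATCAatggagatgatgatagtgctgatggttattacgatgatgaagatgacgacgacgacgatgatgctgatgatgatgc
The peak near Fam43a (9883, rank 12) held strings of 8 and 7 units between a pair of H3K27ac peaks (chr16:30610705-30610864).
Fam43a site: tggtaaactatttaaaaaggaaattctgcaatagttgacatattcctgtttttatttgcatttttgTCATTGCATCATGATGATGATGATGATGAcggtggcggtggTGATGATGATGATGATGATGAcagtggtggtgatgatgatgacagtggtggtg
The highest-scored site with none of these motifs in its central 500 bp was intergenic on chromosome 16 (8557, rank 20; chr16:9165861-9166020), and its middle is shown to set beside the others.
Chromosome 16 site: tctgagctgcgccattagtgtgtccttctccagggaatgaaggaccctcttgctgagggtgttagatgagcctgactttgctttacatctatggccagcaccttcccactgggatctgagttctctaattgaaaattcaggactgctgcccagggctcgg
Because 1 site stood for several motifs, 3 further sites were picked after their values were seen. The highest-scored site with TGACATCA alone lay in an intron of the lincRNA gene Gm12162 (8926, rank 18; chr11:45437977-45438136), where the motif reads TGATGTCA on this strand.
Gm12162 intron site: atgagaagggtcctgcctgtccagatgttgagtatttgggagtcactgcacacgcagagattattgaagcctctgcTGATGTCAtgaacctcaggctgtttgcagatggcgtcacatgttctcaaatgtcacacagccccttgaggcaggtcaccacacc
The highest-scored site with the AP-1 motif alone was intergenic, with Cd93 as the nearest coding gene (7869, rank 24; chr2:148522101-148522260).
Cd93 side site: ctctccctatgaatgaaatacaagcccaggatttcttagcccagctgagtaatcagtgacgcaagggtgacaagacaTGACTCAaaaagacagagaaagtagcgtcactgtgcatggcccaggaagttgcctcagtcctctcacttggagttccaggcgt
The longest string, of 18 units, was found in an intergenic site whose nearest coding gene was Drd1, a dopamine receptor gene (3710, rank 148; chr13:53995779-53995938).
Drd1 side site: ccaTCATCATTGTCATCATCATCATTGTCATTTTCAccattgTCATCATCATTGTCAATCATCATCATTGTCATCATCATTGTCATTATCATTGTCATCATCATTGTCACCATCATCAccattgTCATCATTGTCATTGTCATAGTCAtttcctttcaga

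The motifs of the fusion were counted in the central 500 bp of each site, on both strands, so that wider peaks did not offer more sequence. DNA sequence was not used to choose the sites. The motifs, however, are those that the study found recurrent in V5 sites of these tumours. Their excess over sequence without V5 was thus largely given in advance, and the values describe its size. The full element TGACGTCA was found in 4.82% of the acetylated-only sites (132 of 2740, Wilson 95% interval 4.08 to 5.68), although only 0.248% of all 4418725 distal 500-bp tiles of the genome hold it. This was a 19.4-fold difference, or 12.6-fold against tiles of the same GC content. Tiles held more repeat sequence, and no fold given here is matched for that. Of the tiles, 29.1% were marked as repeats over more than 50% of their length, against 0.803% of the windows of acetylated-only sites. TGACATCA, in which 1 base of the interior is changed, was found in 15.1% (413 sites, 13.8 to 16.5), against 2.51% of tiles, a 6.01-fold difference. The AP-1 motif TGAGTCA, bound by Fos and Jun proteins, was found in 26.5% (726 sites, 24.9 to 28.2), against 7.63% of tiles. Strings were found in 9.45% (259 sites, 8.41 to 10.6), against 4.38% of tiles. The remaining 39.1% (1070 sites) had no such motif, against 70.8% of tiles.

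**Figure D1:**
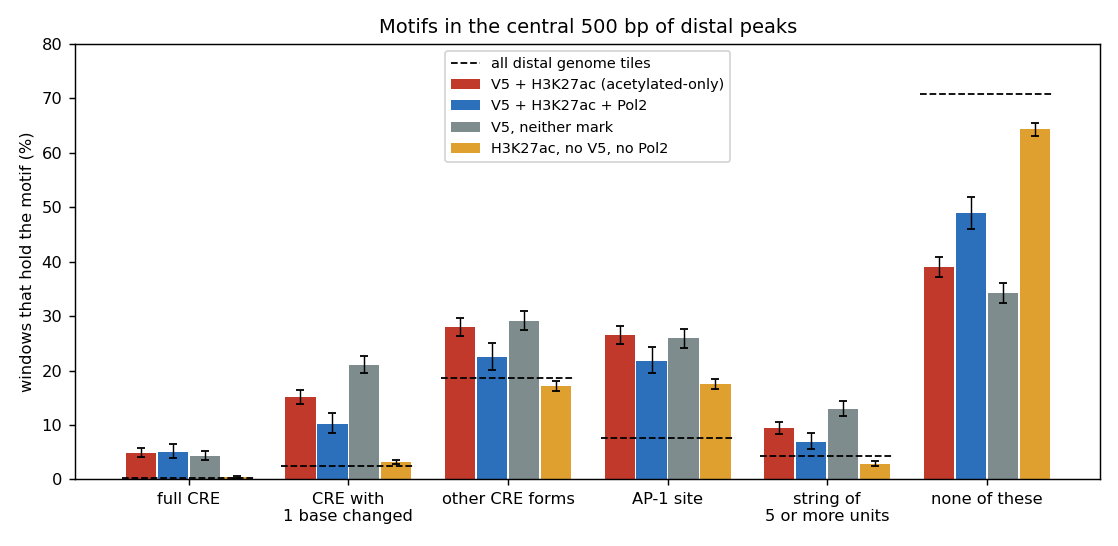
Share of windows (percent) that hold each fusion motif in the central 500 bp of the 4 kinds of distal site, with bars for Wilson 95% intervals and a dashed line for all distal 500-bp genome tiles. The full element stood at 4.82% in acetylated-only sites and at 0.479% in acetylation without V5, and the changed element TGACATCA stepped from 10.2% in both-mark sites through 15.1% in acetylated-only sites to 21.1% in unmarked sites.

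Compared with distal acetylation without the fusion, all 5 motif groups were more frequent in the acetylated-only sites. Because the study drew these motifs from V5 sites of the same tumours, this direction is no independent support for them. The full element was found in 0.479% of the V5-free acetylation, an odds ratio of 10.5 (95% interval 7.06 to 15.7, Fisher's exact test with Benjamini-Hochberg adjustment over 57 comparisons, adjusted p = 1.68e-40). For TGACATCA the share was 3.18% and the odds ratio 5.41 (4.54 to 6.45, exact adjusted p = 5.03e-84). For strings the share was 2.91% and the odds ratio 3.49 (2.87 to 4.24). The AP-1 motif was also frequent in the V5-free acetylation, at 17.5%, and the odds ratio was 1.71 (1.53 to 1.90, exact adjusted p = 4.13e-21). The direction was that of the pooled value in 19 of 19 chromosomes compared for the full element, TGACATCA and strings, and in 18 of 19 for the AP-1 motif. V5-free windows were centred on the acetylation peak, since they have no V5 peak to centre on.

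Among the fusion sites themselves, the changed element differed from both other classes, whereas for the full element neither difference passed the test. TGACATCA was found in 21.1% of the unmarked sites (odds ratio 0.665, 0.576 to 0.767, exact adjusted p = 8.66e-08) and in 10.2% of the both-mark sites (1.55, 1.25 to 1.93, exact adjusted p = 0.000123). It was lower than in unmarked sites on 18 of 19 chromosomes and higher than in both-mark sites on 17 of 19. When only the upper 50% of the H3K27ac and RNAPOL2 peaks by score were used, the difference from both-mark sites was lost (odds ratio 0.921), while that from unmarked sites was kept under all 14 alternatives (0.478 to 0.801). TGACGTCA was found in 4.296% of the unmarked sites (odds ratio 1.13, 0.867 to 1.47, exact adjusted p = 0.458) and in 5.08% of the both-mark sites (0.946, 0.689 to 1.30, exact adjusted p = 0.776). The intervals allow a change of up to 1.47-fold in the odds. The full element was called higher than in unmarked sites when the whole peak was searched (1.33), and lower than in both-mark sites with the upper 50% of the H3K27ac and RNAPOL2 peaks (0.522).

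Strings followed the order of TGACATCA. They were found in 13.0% of the unmarked sites (odds ratio 0.701, 0.588 to 0.834, exact adjusted p = 0.000151) and in 6.92% of the both-mark sites (1.40, 1.08 to 1.83, exact adjusted p = 0.0174). The call against both-mark sites was lost within strata of equal GC content (1.06), in the upper 50% of V5 peaks by score (1.25), with a 50% cover by H3K27ac (1.27) and with the middle base in H3K27ac (1.16). That against unmarked sites was lost when the whole peak was searched (0.914) and in the upper 50% of the H3K27ac and RNAPOL2 peaks (0.817). Both calls were lost when no gaps were allowed between the units (1.01 against both-mark and 0.624 against unmarked sites), a form held by 0.620% of the acetylated-only sites. The AP-1 motif was found in 25.9% of the unmarked sites and 21.8% of the both-mark sites. It did not pass the test against unmarked sites (odds ratio 1.03, 0.909 to 1.17), except when the whole peak was searched (1.26). The call against both-mark sites (1.29, 1.10 to 1.52) was lost within GC strata (1.21), in the central 200 bp (1.24), in the whole peak (1.03) and in the upper 50% of V5 peaks (1.27). The share with none of these motifs was 34.2% in unmarked sites (1.23, 1.10 to 1.38) and 48.9% in both-mark sites (0.668, 0.581 to 0.768). When the whole peak was searched, which was longer in acetylated-only than in unmarked sites (median 770 against 630 bp), the difference from unmarked sites turned (0.967, exact adjusted p = 0.693).

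The interior of the element differed widely in how often it was met. Beside TGACATCA, the form TGACCTCA was found in 9.01% of the acetylated-only sites (247), 3.58-fold the share of tiles, and TGAAGTCA in 6.64% (182), 2.26-fold. TGAGATCA was found in 4.05% and TGAGCTCA in 2.59%, which was 2.06-fold and 2.19-fold. TGAACTCA, by contrast, was met in 3.28%, which was 0.61-fold the share of tiles, and TGAATTCA in 1.28%, or 0.718-fold. A change of the interior thus went with shares on both sides of the genome background. These folds were matched neither for GC content nor for repeats. Windows marked as repeats over more than 50% of their length made up 29.1% of tiles and 0.803% of acetylated-only sites. The part of this in the low shares was not tested. Together, the forms other than TGACGTCA and TGACATCA were found in 28.0% of the acetylated-only sites, in 29.2% of the unmarked sites (odds ratio 0.944, exact adjusted p = 0.439) and in 22.5% of the both-mark sites (1.34, 1.14 to 1.57). The latter call was lost in the central 200 bp (1.07), in the whole peak (1.04) and in the upper 50% of V5 peaks (1.22). Against unmarked sites these forms were called lower in the central 200 bp (0.799) and with the upper 50% of the marks (0.840), and higher in the whole peak (1.14).

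The motifs lay near the middle of the peaks. Within 100 bp of the middle, 84 copies of TGACGTCA were found in the acetylated-only sites, and 4 copies were found between 400 and 500 bp from it, which covers the same length. For TGACATCA these counts were 262 and 49, for the AP-1 motif 431 and 117, and for strings 166 and 61. The inner-to-outer ratio of TGACATCA was 5.35, compared with 11.5 in unmarked sites and 3.89 in both-mark sites. The outer band often lay beyond the peak, whose median width was 770 bp, 630 bp in unmarked and 880 bp in both-mark sites. Most sites had few kinds of motif. A single kind was held by 1155 sites (42.2%), 2 kinds by 418, 3 by 82 and 4 by 15. TGACGTCA occurred as 1 copy in 129 of its 132 sites, and it shared a site with TGACATCA in 12.

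**Figure D2:**
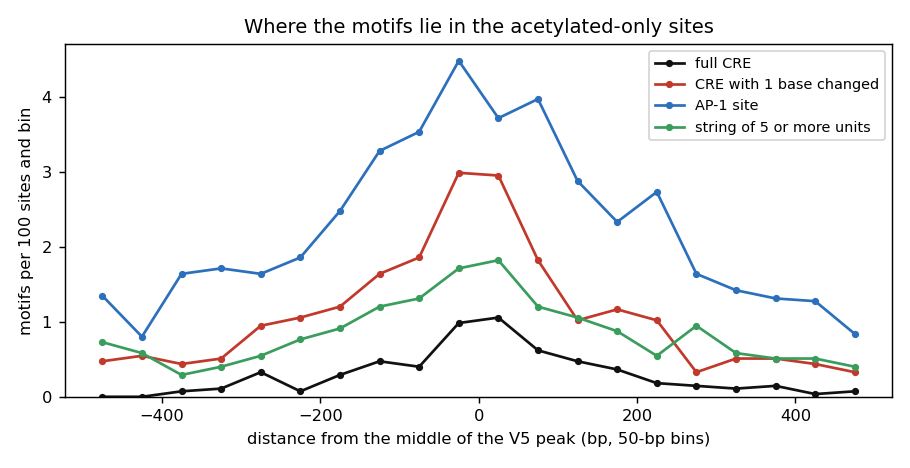
Number of motifs per 100 acetylated-only sites in each 50-bp bin (y axis) by distance from the middle of the V5 peak in bp (x axis). All 4 curves were highest within 100 bp of the middle, where 431 AP-1 motifs, 262 copies of TGACATCA, 166 strings and 84 copies of TGACGTCA were counted.

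Motifs of other factor families were counted in the same windows from a list of 10 short sequences. TAATTA, the core bound by homeodomain proteins, was found in 19.9% of the acetylated-only sites (545), against 9.45% of the V5-free acetylation (odds ratio 2.38, 2.10 to 2.70, exact adjusted p = 5.33e-39). All distal tiles held it in 17.5%, and tiles of the same GC content in 10.9%. TGATGCAA, a composite C/EBP and ATF element, was found in 3.21% against 1.12% (2.94, 2.14 to 4.03, exact adjusted p = 1.68e-10). TGTGGTT, the RUNX motif, was found in 16.5% against 11.5% (1.52, 1.34 to 1.72, exact adjusted p = 9.53e-10), a call lost when whole peaks were searched (1.07). Against unmarked sites, where it stood at 19.04%, it was less frequent (0.842, exact adjusted p = 0.0307), a call that turned in whole peaks (1.12) and was lost within GC strata (0.890), in the central 200 bp (0.869), within deciles of V5 score (0.881) and in the upper 50% of V5 peaks (0.925). TCATGTG, a motif of the melanocyte regulator MITF and its TFE relatives, was found in 10.1% against 7.70% (1.35, 1.16 to 1.58), and tiles held it in 10.6%. In whole peaks the direction turned (0.935). ACAATGG (SOX) and CATTCCA (TEAD) did not pass the test against V5-free acetylation, with odds ratios of 0.992 (0.824 to 1.19) and 1.11 (0.962 to 1.29). The SOX motif was less frequent than in unmarked sites (6.24% against 7.97%, 0.768, exact adjusted p = 0.0269), which turned in whole peaks (1.13) and was lost within GC strata (0.782), with 1 peak per 50 kb (0.796), in the upper 50% of V5 peaks (0.819) and with the upper 50% of the marks (0.850).

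The motifs rich in G and C were less frequent than in V5-free acetylation and in both-mark sites, but not than in unmarked sites. GCCNNNGGC (AP-2) was found in 12.6% of the acetylated-only sites, against 18.01% of the V5-free acetylation, 18.1% of the both-mark sites and 8.67% of the unmarked sites. CCGGAAG (ETS) was found in 1.79%, against 3.69%, 3.94% and 1.65% in the same order, and CAGCTG, an E-box of myogenic and other helix-loop-helix factors, in 31.0%, against 35.0%, 34.9% and 24.99%. The forkhead motif TGTTTAC, which is not rich in G and C, was found in 5.22%, against 6.69% of the V5-free acetylation (odds ratio 0.768, 0.632 to 0.934). Its direction turned with the upper 50% of the H3K27ac and RNAPOL2 peaks (1.19). That call was also lost in the central 200 bp (0.871), with 1 peak per 50 kb (0.799), with the middle base in H3K27ac (0.816) and in the upper 50% of V5 peaks (0.848). GC content moved with the counts of the motifs rich in G and C. Its median was 46% in acetylated-only sites, 49.4% in both-mark sites, 43.8% in unmarked sites and 50% in V5-free acetylation. Within GC strata the direction for CAGCTG and for GCCNNNGGC turned against V5-free acetylation (1.11 and 1.04) and against both-mark sites (1.06 and 1.04), and no call was left for them against unmarked sites. The call of CCGGAAG against both-mark sites (0.444) was lost within GC strata (0.710). With the upper 50% of the H3K27ac and RNAPOL2 peaks, CCGGAAG was called higher than in unmarked sites (1.90 in place of 1.08). Against unmarked sites, TAATTA did not pass the test (0.908, 0.793 to 1.04, exact adjusted p = 0.228), but was called lower under 4 alternatives (0.802 to 0.856). Against both-mark sites it was more frequent (1.62, 1.33 to 1.96), which was lost within GC strata (1.17).

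The acetylation around the sites was then described. These values come from the lists that chose the sites, and no test was made of them. The middle of the V5 peak lay inside an H3K27ac peak in 1918 acetylated-only sites (70%), between a pair of H3K27ac peaks in 301 (10.99%), and beside an H3K27ac peak on 1 side in 521 (19.01%). In both-mark sites these shares were 95.4%, 2.10% and 2.45%. H3K27ac peaks were met most often beside the middle of the acetylated-only sites. They covered the middle itself in 70% of the sites and the position 500 bp to 1 side in 82.3%, then 42.5% at 1000 bp and 13.1% at 3000 bp. Sites between a pair of acetylation peaks had a median V5 score of 665, against 265 with the middle inside and 313 on 1 side, and they held strings in 16.6%, against 7.87% and 11.1%.

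**Figure D3:**
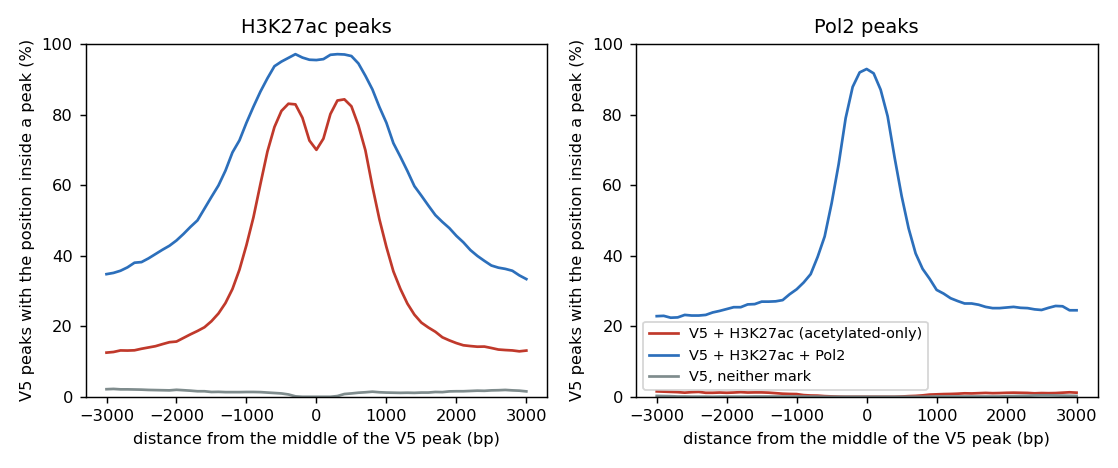
Share of V5 peaks (percent, y axis) whose position at a given distance from the middle in bp (x axis) lies inside an H3K27ac peak (left) or an RNAPOL2 peak (right), for the 3 kinds of distal V5 site. Acetylated-only sites dipped to 70% at the middle and stood at 82.3% at 500 bp, whereas the rule itself holds their RNAPOL2 curve at 0 in the middle.

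The H3K27ac peaks themselves had lower scores and were narrower than those of both-mark sites. The 2927 H3K27ac peaks touched by acetylated-only sites had a median score of 129 and a median width of 1350 bp. The 1020 touched by both-mark sites had medians of 504 and 3145 bp, and V5-free acetylation had medians of 82 and 950 bp. V5 scores were 153, 289 and 665 at the quartiles of the acetylated-only sites, and their medians were 329.5 in both-mark and 217 in unmarked sites. Acetylated-only sites, 25.7% of all V5 peaks, made up 15.0% of the lowest-scored quintile and 34.7% of the highest. Both-mark sites also took a larger share of the highest quintile (18.1%) than of the lowest (8.72%). Of the top 100 V5 peaks, 24 were acetylated-only sites, 47 both-mark sites, 29 promoter peaks and 0 unmarked sites. Of the top 1000, these were 348, 220, 401 and 31.

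The sites nearest to the limits of the rule were close to them on both sides. The acetylated-only site nearest to the promoter window had its edge 3021 bp from a TSS, and the nearest V5 peak with the same marks inside the window had its edge at 2996 bp. The smallest gap to an RNAPOL2 peak was 120 bp, and 61 sites (2.23%) had 1 within 1 kb, while the median gap was 41.5 kb. The smallest overlap with H3K27ac was 10 bp, and 67 unmarked sites (2.77%) had an H3K27ac peak within 500 bp.

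Strings were met most often at the highest V5 scores, and no test was made of this. The acetylated-only sites were divided by score into 4 equal groups of 685. From the lowest to the highest, the share with a string was 6.28%, 7.01%, 7.15% and 17.4% (14.7 to 20.4 in the highest). TGACATCA went from 12.6% in the lowest group to 16.4% in the highest, TGACGTCA from 3.80% to 5.84%, and the AP-1 motif was at 28.5% and 26.9%. For each of these 3 motifs the intervals of the lowest and the highest group overlapped. The AP-1 motif was lowest in the next-to-lowest group, at 21.6% (18.7 to 24.8). The share of sites between a pair of H3K27ac peaks went along the same groups from 3.50% to 22.2%. Sites with a string had a median score of 561, and those whose longest string had 5 units had 376. In the 14 sites with a string of 10 or more units the median was 1143.5. Of the 18 strings of that length, 16 lay mostly in sequence that the genome marks as repeats.

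**Figure D4:**
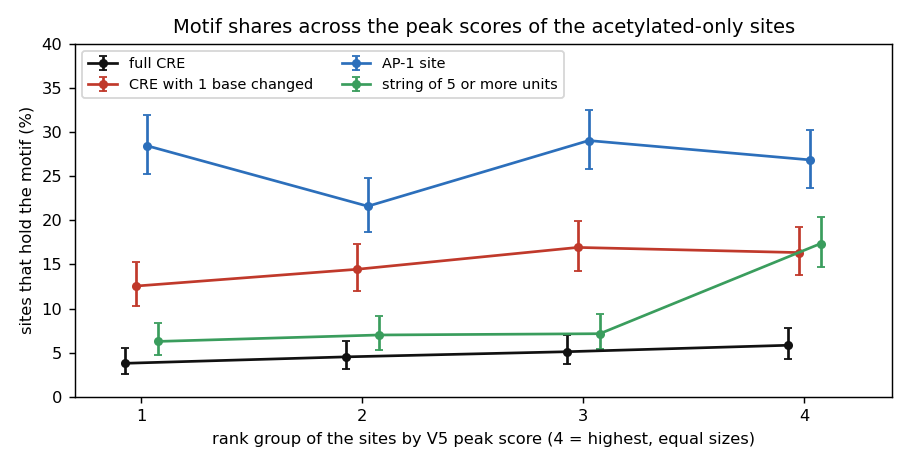
Share of acetylated-only sites (percent, y axis) that hold each motif, by rank group of the V5 peak score (x axis, 685 sites each), with Wilson 95% intervals. The string share was 17.4% in the highest group after 7.15% in the group before.

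The strongest acetylated-only sites were mostly far from genes. Of the 10 with the highest scores (6415 to 13847), 8 were intergenic and 2 were intronic, and 5 lay between a pair of H3K27ac peaks. The site on chromosome 13 (chr13:44167451-44169910) was 2460 bp wide and lay wholly inside 1 H3K27ac peak, 383 kb downstream of Cd83, a surface protein of mature dendritic cells. Its nearest RNAPOL2 peak was 302 kb away. The Fam43a peak (chr16:30609921-30611630) lay 11.1 kb downstream of the Fam43a TSS, with an RNAPOL2 peak 2.35 kb away. On chromosome 12, a peak lay 148 kb from its nearest coding gene Dcdc2c (chr12:28368121-28369730, score 9461). Another lay 40.9 kb from Tmx1 (chr12:70499771-70501670, 8007). Both held a string and lay between H3K27ac peaks. A site in an intron of Pappa2, a protease that cuts insulin-like growth factor binding proteins, held TGACATCA and the AP-1 motif (chr1:158852471-158854040, 6709). The site whose nearest gene was Grin2a, an NMDA receptor subunit gene 448 kb away (chr16:9348941-9350640, 6494), held TGACATCA and a string, and the last of the 10 (chr9:84531751-84533340, 6415) held a string at a GC content of 33.8%.

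In the genome, 46.5% of the acetylated-only sites (1274) were intergenic. The share was 33.2% in both-mark sites (odds ratio 1.75, 1.51 to 2.02, exact adjusted p = 9.38e-14), 52.5% in unmarked sites (0.788, 0.706 to 0.879, exact adjusted p = 5.10e-05) and 38.1% in V5-free acetylation (1.41, 1.29 to 1.55, exact adjusted p = 5.03e-13). With only the upper 50% of the H3K27ac and RNAPOL2 peaks by score, the direction turned against both-mark sites (0.740) and against V5-free acetylation (0.864). The middle of the peak was intronic in 1356 sites (49.5%) and exonic in 100 (3.65%). The median distance to the nearest coding TSS was 37.7 kb, against 18.97 kb in both-mark sites, 60.4 kb in unmarked sites and 19.2 kb in V5-free acetylation. On chromosome X there were 9 acetylated-only sites (0.328%), compared with 25 unmarked sites (1.03%, odds ratio 0.316, 0.147 to 0.678, exact adjusted p = 0.00496). Against both-mark sites, of which 1 lay there (0.0876%), the odds ratio was 3.76 (0.476 to 29.7), and against V5-free acetylation, with 40 (0.639%), it was 0.513 (0.248 to 1.06), and neither passed the test. The call against unmarked sites was lost in the upper 50% of the V5 peaks (0.661). Chromosome X held 0.0526 acetylated-only sites per Mb and the autosomes 0.749 to 1.75, and V5-free acetylation was likewise sparse on it, at 0.234 per Mb against at least 1.69.

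RNAPOL2 at the nearest gene was examined next. The nearest coding promoter had an RNAPOL2 peak for 78.2% of the acetylated-only sites (2144), while 53.5% of all coding genes had 1. The share was 67.6% for unmarked sites (odds ratio 1.72, 1.52 to 1.95, exact adjusted p = 6.10e-17). It was 81.5% for V5-free acetylation (0.818, 0.732 to 0.914, exact adjusted p = 0.000798), a call that was lost when each gene was counted once (0.904) and with the upper 50% of the H3K27ac and RNAPOL2 peaks (0.998). It was 89.1% for both-mark sites, and although this comparison is among the 57, it is read as a description only, because the RNAPOL2 list divided those classes. A V5 peak was found at the nearest coding promoter of 44.6% of the acetylated-only sites, 58.5% of the both-mark sites, 35.8% of the unmarked sites and 35.3% of the V5-free acetylation, while 16.6% of all coding genes had 1.

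**Figure D5:**
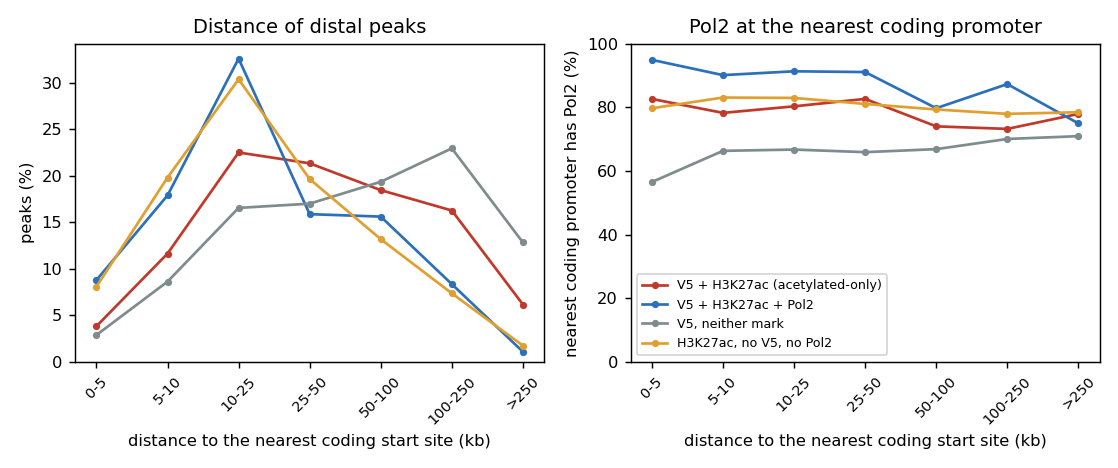
Left, share of each kind of distal site (percent) by distance to the nearest coding TSS in kb; right, share whose nearest coding promoter has an RNAPOL2 peak, by the same distance. Acetylated-only sites had a median distance of 37.7 kb, and their RNAPOL2 share lay above that of unmarked sites in every distance bin.

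The median distance from a site to the nearest other site was 36.1 kb, and 823 sites had another within 10 kb. Neighbouring H3K27ac peaks up to 12 kb apart were joined into 16205 regions, of which 2132 held an acetylated-only site, and 1694 of these held a single one. In all, 7 regions held 5 or more. The fullest region held 9 among 11 V5 peaks and lay around Tmem182 on chromosome 1 (chr1:40805051-40858230), with scores of 140 to 1580. The next lay at Gdap2 on chromosome 3 (chr3:100188911-100266000) with 8, and held 1 site with a score of 2014. A region at Mtmr7 on chromosome 8 (chr8:40590741-40661310) and a region at Adamts16 on chromosome 13 (chr13:70730121-70747310) held 6 each, and the latter held no RNAPOL2 peak. A region beside Reep3 on chromosome 10 (chr10:66813581-66879770) held 5, as did the other two of the 7.

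A nearest gene is a matter of position, and no expression was measured here. The acetylated-only sites had 1529 nearest coding genes, 6.97% of the 21938 coding genes, and 1334 (6.08%) when the distance was held to 100 kb. Cd83 was nearest to 14 sites, all at least 123 kb away, and Reep3, of the endoplasmic reticulum, to 12. Pde4d, Fam241a, Tshz2 and Bach2 were nearest to 11 each. Pde4d encodes a phosphodiesterase that degrades cAMP, Tshz2 a zinc finger factor, and Bach2 a leucine zipper repressor. Tmem182 followed with 10, and Wdr11, Myo16 and Trib1 with 9. All 10 genes had RNAPOL2 and H3K27ac peaks at a promoter, and 5 of them, Reep3, Pde4d, Tshz2, Bach2 and Trib1, also had a V5 peak there. Over all coding genes, these shares were 53.5% for RNAPOL2, 58.6% for H3K27ac and 16.6% for V5. Fam43a was nearest to 7 sites.

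Lists of genes of related pathways were counted without a test, to be read against the 6.97% of all coding genes. In the cAMP pathway, 8 of 32 genes (25%) were nearest to an acetylated-only site, with 30 sites among them. They were the phosphodiesterases Pde4d, Pde4b (5 sites), Pde10a (4), Pde7b, Pde1a and Pde3a, the adenylyl cyclase Adcy2, which makes cAMP (3 sites), and the cAMP-activated exchange factor Rapgef4 (3). Within 100 kb, 6 of the 32 were left. Among feedback genes of the MAP kinase pathway, 6 of 17 were nearest to a site, led by Dusp10 with 7 sites (scores up to 3570) and Dusp1 with 4, both phosphatases of MAP kinases. Among immediate early targets of CREB there were 4 of 16. These included Klf4, a factor of cell identity, with 7 sites at 165 to 504 kb, and the kinase Sik3 with 4 sites at 10.7 to 33.9 kb. Of the CREB and ATF genes, 2 of 18 were nearest to a site, with Creb5 at 5 sites, and of the AP-1 genes 1 of 16, Fos. The clock and PAR leucine zipper list had 4 of 21, with the repressor Nfil3 at 4 sites. The RUNX list had 2 of 5, with Runx1 at 6 sites.

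In the list of melanocyte and neural crest genes, 6 of 30 were nearest to an acetylated-only site, and 3 of 30 within 100 kb. Sox5 had 4 sites at 121 to 284 kb, Sox9 had 3 at 278 to 315 kb, Ednrb and Trpm1 had 2, and Mitf, the regulator of melanocytes, had 1 at 22.0 kb with a score of 246. The tumour type was checked on the promoters of the 30 genes of this list, of which 14 had H3K27ac, 10 RNAPOL2 and 3 V5. Over all coding genes these shares were 58.6%, 53.5% and 16.6%, so the list did not stand above them for any mark. Among the defining genes of the list, Mitf and Pmel had RNAPOL2 and H3K27ac peaks. In contrast, Sox10, Tyr, Mlana and Tyrp1 had no peak of any kind at a promoter, and Dct had a V5 peak only. Promoters of genes of other cell types were counted because the tumours were taken whole. Of 15 leukocyte genes, 9 had H3K27ac and 4 RNAPOL2 at a promoter, of 15 fibroblast and vessel genes 10 and 5, and of 21 skeletal muscle genes 6 and 8, to be read against 58.6% and 53.5% of all coding genes. Myod1, Ckm and Acta1, which define muscle, had no peak. Ptprc and Csf1r of leukocytes and Pdgfra of fibroblasts each had an H3K27ac peak, but no RNAPOL2 or V5 peak, at a promoter. An acetylated-only site was nearest to 0 of the leukocyte genes, to 1 of the muscle genes (Mef2a) and to 2 of the fibroblast and vessel genes (Col3a1, and the VEGF receptor gene Kdr with 3 sites). These are to be read against 6.97% of all coding genes. Within 100 kb, 1 of the muscle genes and 0 of the fibroblast and vessel genes were left. The part of such cells in the acetylation of these sites was not tested.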

How the data were processed

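V5, RNAPOL2, H3K27ac and input ChIP-seq were performed by the authors on 16 samples of mouse CCS tumours. According to its methods and the labels, reads went to mm10 with BWA-MEM (version 0.7.10-r789), duplicates were removed, peaks were called with MACS2 (version 2.2.6) against input, with the broad option for H3K27ac, and denylisted regions were discarded. The authors' 3 deposited lists give each peak a score in whole numbers, of unstated scale. Whether samples were pooled for the peak lists is not stated (the methods describe averaging replicates for signal tracks only), and the methods name more V5 and RNAPOL2 samples than the labels, so the samples behind each list are not known. Peaks were at least 500 bp wide, on a 10-bp grid.

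TSSs and gene bodies came from GENCODE vM21 and sequence from the RefSeq copy of GRCm38. Shares were compared by Fisher's exact test, two-sided, with 95% intervals of the odds ratio on the log scale and Benjamini-Hochberg adjustment over 57 comparisons, of which 37 passed at 0.05. Alternatives within strata (GC content, V5 score, distance) used Mantel-Haenszel odds ratios and their chi-square test, the others Fisher's exact test. Peaks, not tumours, were counted, and neighbouring peaks are not independent. The code was tested on simulated data. Tests used scipy 1.17.1 and statsmodels 0.14.6 under Python 3.11.15. The sites, gene lists and motifs were chosen with earlier results of these data known. Named were the 10 highest-scored sites, the 5 fullest acetylation regions (ties broken by the number of V5 peaks), the 10 genes nearest to most sites, list genes nearest to at least 3 sites, the Fam43a peak, and for sequences the highest-scored site of each motif kind outside chromosome 18. List genes with fewer sites, the marker promoters and the 3 added sequences were named after their values were seen.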

Additional observations from a re-analysis of the deposited data

How the results depend on the processing

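No paired analysis was possible because each antibody has 1 peak list and no values per sample, although the labels give the same replicate numbers to all antibodies, and leaving out single samples was not possible for the same reason. Of 748 recomputed values, 624 kept both the direction and the side of the threshold. All those of the full element, TGACATCA, strings, the AP-1 motif and the other forms against V5-free acetylation did so, as did TGACATCA against unmarked sites and RNAPOL2 at the nearest promoter against unmarked sites. The number of sites moved to 1639 with V5 peaks of the upper 50% of scores and to 1679 with the upper 50% of the H3K27ac and RNAPOL2 peaks. The other 6 definitions gave 1918 to 3054, and 1334 coding genes were nearest within 100 kb. The values below are odds ratios of the fusion motifs and of position that lost or gained a call, and of all motifs where the direction changed, and the cause was not tested. Motifs of other families also lost a call in 27 cases and gained one in 18 with the direction kept. In 1 of them the MITF motif went from 1.23 to 2.39 against both-mark sites with the upper 50% of the marks. Unless said otherwise, a change of direction concerned a motif with no call. Motifs of other families are named by their factors.

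Against unmarked sites, the central 200 bp gave 0.915 for TGACGTCA, 0.799 for the other forms (now called), 0.902 for the AP-1 motif, 0.965 for MITF, 0.827 for ETS and 1.33 for forkhead. The whole peak gave 1.33 for TGACGTCA and 1.26 for the AP-1 motif (both now called), 1.14 for the other forms and 1.24 for TEAD (both now called), 0.914 for strings, 0.967 for none of the motifs (called at 1.23), 1.13 for SOX (called at 0.768), 1.12 for RUNX (called at 0.842), 1.07 for homeodomain and 1.23 for forkhead. GC strata gave 0.874 for ETS and 1.10 for homeodomain. The upper 50% of V5 gave 0.970 for TGACGTCA, 0.9998 for MITF, 1.02 for TEAD, 0.719 for ETS, 1.001 for homeodomain and 0.661 for chromosome X. The upper 50% of the marks gave 0.741 for TGACGTCA, 0.840 for the other forms (now called) and 0.817 for strings, and strings without gaps gave 0.624.

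Against both-mark sites, GC strata gave 1.13 for TGACGTCA, 1.21 for the AP-1 motif, 1.06 for strings, 0.899 for SOX, 1.06 for the E-box (called at 0.841) and 1.04 for AP-2 (called at 0.649). The central 200 bp gave 1.07 for the other forms, 1.24 for the AP-1 motif, 0.853 for the C/EBP and ATF element, 0.929 for SOX and 0.985 for RUNX. The whole peak gave 1.04 for the other forms, 1.03 for the AP-1 motif, 0.979 for MITF, 0.991 for SOX and 0.887 for RUNX. A cover of 50% by H3K27ac gave 1.04 for TGACGTCA, 1.27 for strings and 0.973 for the C/EBP and ATF element, and the middle base in H3K27ac gave 1.03, 1.16 and 0.971 for the same 3, and 0.950 for SOX. The SOX motif stood at 0.993 within deciles of V5 score, 0.941 with a 5 kb promoter window and 0.990 in windows of which at most 50% was repeat sequence, an alternative chosen after seeing the data. Strings without gaps gave 1.01. The upper 50% of V5 gave 1.22 for the other forms, 1.27 for the AP-1 motif and 1.25 for strings. The upper 50% of the marks gave 0.522 for TGACGTCA (now called), 0.921 for TGACATCA (called at 1.55), 0.898 for the C/EBP and ATF element, 1.16 for the E-box and 0.740 for intergenic position (called on both sides).

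Against V5-free acetylation, the SOX motif was at 1.04 with 1 peak per 50 kb, 1.03 with coding TSSs only, 1.0003 without RNAPOL2 within 1 kb, 1.05 with a 1 kb promoter window and 1.10 in the upper 50% of V5. GC strata gave 1.11 for the E-box (called at 0.834) and 1.04 for AP-2 (called at 0.654), and the whole peak 0.935 for MITF (called at 1.35) and 0.934 for TEAD. RNAPOL2 at the nearest promoter was at 0.904 with 1 peak per gene. The upper 50% of the marks gave 1.19 for forkhead (called at 0.768), 0.864 for intergenic position (called at 1.41), 0.998 for RNAPOL2 at the nearest promoter and 0.0652 for chromosome X (now called).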
